A study of Mus musculus with 12 samples.

Results

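Ribosome production was followed through 52 nucleolar ribosome biogenesis factors, chosen by gene symbol for their known roles, with no measured value in the rule. All 52 were found among the 29937 genes of the deposited table, all 52 were among the 12036 genes tested, and each reached an FPKM of at least 1 in all 12 libraries. FPKM is a count of fragments scaled to the length of the transcript and to the size of the library. The libraries were made from poly(A) RNA of 4T1, a mouse mammary carcinoma line labelled adherent and wild type, although the series text mentions a cell-derived xenograft. There were 4 groups of 3 libraries: PBS (the controls, whose treatment label reads DMSO), APAP, Oxa and OAP2. The PBS values come from columns headed CON, matched to the PBS titles by inference because the other columns carry a drug name. Doses, treatment times and whether the libraries of a group came from separate cultures are unstated in the labels, so a p-value reflects the spread between these libraries and no more. Epithelial marker genes were abundant throughout, with a summed FPKM of 1030 to 1400.

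Ribosomes are built in the nucleolus. RNA polymerase I copies the ribosomal DNA into one long precursor, small nucleolar ribonucleoproteins (snoRNPs) modify its bases and sugars, the small-subunit processome folds and cuts it, and separate sets of assembly factors carry the pre-40S and pre-60S particles towards the cytoplasm. Transcription of these factors is known to follow growth signals, MYC among them, and tumour cells usually express them highly. The members were grouped by role into RNA polymerase I and its factors (6 genes), snoRNP core proteins (7), multifunctional nucleolar proteins (5), the small-subunit processome (13), late 40S assembly (6) and 60S assembly (15). Ribosomal RNA itself was not measured in these poly(A) libraries.

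RefSeq promoter windows (GRCm38.p6, 250 bases before to 50 after the start of transcription, 300 in all) were found for 46 of the 52 members. The E-box CACGTG, the sequence bound by MYC and MAX, which reads alike on both strands, was present in 10 of 55 member windows (18.2%) against 7.15% of all 32851 windows of this length. The ETS-type sequence CCGGAAGT, searched on both strands (reverse complement ACTTCCGG), was present in 14 member windows (25.5%) against 3.89% of all windows. These are letter matches and no measure of binding. The share among windows of the tested genes alone is not given, so the differences cannot be called particular to the members. CACGTG and CCGGAAGT cannot share a base, so no match counts for both. Among all 46 members with a window, 10 held CACGTG and 13 held CCGGAAGT, some of them both. Whether the motifs went with the calls below was not tested. Of the 12 members that passed the test in at least 1 comparison below, 11 had a window and 3 of these held CACGTG or CCGGAAGT. Those 3 windows and that of Polr1b, which passed the test in 2 comparisons and holds none of the motifs, are shown from 250 bases before to 30 after the start, 5′ to 3′ on the gene's strand, with the motif in capitals. Wdr43 lies at chr17:71615965-71616244, Noc2l at chr4:156235760-156236039, Heatr1 at chr13:12395125-12395404 and Polr1b at chr2:129100746-129101025, all on the plus strand.
Wdr43: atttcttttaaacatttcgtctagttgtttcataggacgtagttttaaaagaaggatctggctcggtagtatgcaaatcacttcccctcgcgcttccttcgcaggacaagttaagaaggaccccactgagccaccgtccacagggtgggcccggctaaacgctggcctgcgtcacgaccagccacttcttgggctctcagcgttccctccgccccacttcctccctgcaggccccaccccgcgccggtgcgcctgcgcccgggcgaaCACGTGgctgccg
Noc2l: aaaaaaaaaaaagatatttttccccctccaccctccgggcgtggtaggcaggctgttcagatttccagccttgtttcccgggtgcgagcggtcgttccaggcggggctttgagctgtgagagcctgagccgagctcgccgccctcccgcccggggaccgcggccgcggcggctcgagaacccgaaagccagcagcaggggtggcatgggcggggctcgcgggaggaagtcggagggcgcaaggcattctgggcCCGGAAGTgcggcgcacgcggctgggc
Heatr1: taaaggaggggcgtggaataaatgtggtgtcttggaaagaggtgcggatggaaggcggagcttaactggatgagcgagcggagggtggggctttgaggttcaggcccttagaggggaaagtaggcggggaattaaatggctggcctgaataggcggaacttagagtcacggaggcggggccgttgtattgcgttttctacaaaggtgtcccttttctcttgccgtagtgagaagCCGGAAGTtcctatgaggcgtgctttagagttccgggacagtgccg
Polr1b: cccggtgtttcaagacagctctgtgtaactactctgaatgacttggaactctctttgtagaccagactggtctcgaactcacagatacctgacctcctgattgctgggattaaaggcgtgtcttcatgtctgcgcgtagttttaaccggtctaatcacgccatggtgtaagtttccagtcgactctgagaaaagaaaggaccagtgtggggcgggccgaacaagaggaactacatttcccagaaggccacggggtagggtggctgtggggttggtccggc

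The members ranged from 4.48 FPKM to 717.08 FPKM, a value reached by Npm1 (nucleophosmin, a histone and ribosome chaperone) in PBS 2. Npm1 averaged 617 ± 87.4 FPKM (SD, n = 3 libraries here and below) in PBS, 530.5 ± 22.3 in APAP, 506.5 ± 40.8 in Oxa and 552.8 ± 129.5 in OAP2. Ncl (nucleolin, which binds ribosomal DNA chromatin and precursor RNA) averaged 228.4 ± 22.4, 220.0 ± 4.28, 208.9 ± 8.61 and 225.3 ± 38.2 in the same order. For Ncl the libraries of each treated group overlapped those of PBS. For Npm1 every Oxa library (466.11 to 547.69) lay below every PBS library (556.09 to 717.08), though this difference did not pass the test below. Nop56, a box C/D snoRNP scaffold, led the snoRNP proteins at a mean of 203.4 FPKM over the 12 libraries, and Nhp2, of the box H/ACA snoRNPs, followed at 83.6. Nop2, a 60S assembly factor and RNA methyltransferase, averaged 90.6 FPKM and Rrp1 71.7. Rrn3, the initiation factor that recruits RNA polymerase I, averaged 38.4 FPKM, and Ubtf, which binds the ribosomal DNA promoter, 35.4. Tsr1 and Pno1, of late 40S assembly, averaged 54.1 and 51.1, and Nop14 and Utp4, of the small-subunit processome, 80.7 and 47.5. Wdr12 was the lowest member in mean FPKM, at 5.42.

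With all 12 libraries, for each of the 52 members, the highest group mean of FPKM was less than 1.5 times the lowest, with a median ratio of 1.2 and a range from 1.02 for Nolc1, a snoRNP chaperone, to 1.44 for Ddx18, a 60S helicase. PBS held the highest mean for 26 members, OAP2 for 12, and APAP and Oxa for 7 each. The lowest mean was in OAP2 for 18 members, in Oxa for 14, and in PBS and in APAP for 10 each. These values rest on PBS 2. Without that library the ratio reached 1.5 for 3 members, Utp15 of the processome (1.53), Ebna1bp2 of 60S assembly (1.63) and Ddx18 (1.78), each lowest in PBS, and the median was 1.23. The lowest mean was then in PBS for 20 members and the highest in PBS for 12. No direction of change was shared by all members.

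**Figure D1:**
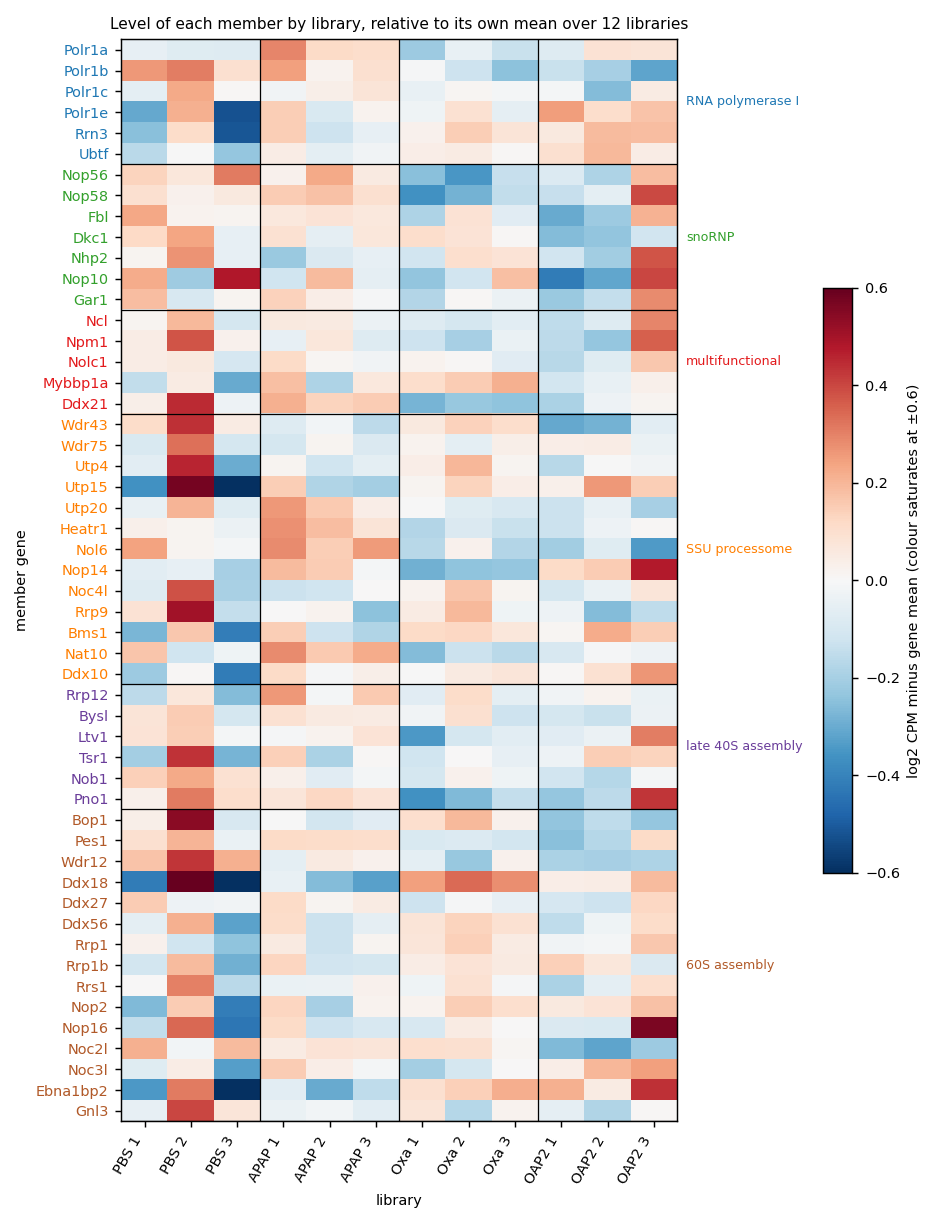
Level of each of the 52 members (rows, grouped and coloured by role) in each of the 12 libraries (columns), as log2 CPM (counts scaled to library size) minus the gene's mean over the libraries; the colour saturates at ±0.6. PBS 2 is mostly red, with a mean deviation of 0.19, and PBS 3 is mostly blue, with -0.14.

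The control libraries spread most. On the scale of log2 CPM, the members' mean deviation from their own average was 0.19 in PBS 2 and -0.14 in PBS 3, and -0.02 in PBS 1. PBS 2 was the highest of the 12 libraries for 22 members (42.3%, against 17.1% of all genes tested), and PBS 3 the lowest for 19 (36.5%, against 12.4%). Within the PBS group, PBS 2 stood above the other two libraries for 40 of 52 members (76.9%, against 42.4% of all genes). Among the OAP2 libraries, OAP2 3 stood above the other two for 35 members (67.3%, against 37.6%), with a mean deviation of 0.10 against -0.09 in OAP2 1 and -0.06 in OAP2 2. The median SD of a member within its group was 0.167 in PBS, 0.0753 in APAP, 0.0633 in Oxa and 0.108 in OAP2, against 0.213, 0.111, 0.114 and 0.173 over all genes. PBS 2 also carried markers of other cells: the 5 red blood cell markers summed to 230.0 FPKM there and to 0.07 to 0.37 in the other 11 libraries, and the 6 neutrophil markers to 64.3 against 0.0 to 0.54. The 6 macrophage markers were lowest there, at 6.3 against 7.39 to 15.2. Fibroblast markers summed to 2.04 against at most 1.79, and endothelial markers to 0.1 against at most 0.09. T and NK cell markers summed to 0.22 against at most 0.03, and B and plasma cell markers to 0.41 against at most 0.17. The part of other cells in the members' levels was not tested. In bulk RNA fewer cells of a type and less RNA per cell cannot be told apart. Counts of called members and of called genes in the other lists are therefore given with and without PBS 2.

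The snoRNP proteins had another profile over the PBS libraries. Their mean deviation was 0.14 in PBS 1, 0.04 in PBS 2 and 0.11 in PBS 3, so that PBS 3 did not stand low. That PBS 3 mean rested on Nop10 (0.48) and Nop56 (0.31), with the others between -0.05 (Nhp2) and 0.06 (Nop58). PBS 3 stood at -0.21 for the RNA polymerase I group, -0.19 for the processome and -0.21 for 60S assembly. It stood at -0.10 for the multifunctional proteins and -0.08 for late 40S assembly. In OAP2 the snoRNP proteins stood at -0.22 and -0.20 in libraries 1 and 2 and at 0.25 in library 3. This course was not particular to them. The multifunctional proteins stood at -0.16, -0.09 and 0.17, late 40S assembly at -0.09, -0.05 and 0.13, and 60S assembly at -0.07, -0.06 and 0.10. Fbl, the methyltransferase of the box C/D particles, measured 35.21, 36.54 and 49.67 FPKM in OAP2 1 to 3, against 43.85 to 49.63 in PBS. Dkc1, the pseudouridine synthase of the box H/ACA particles, measured 40.28, 40.13 and 44.11 in OAP2, below its PBS values of 51.16, 56.76 and 47.86 in every library. These are descriptions of single libraries.

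Between OAP2 and PBS, 4 members fell and 0 rose. The 4 were Wdr12 and Noc2l of 60S assembly, Polr1b of RNA polymerase I and Wdr43 of the processome, each to between 0.724 and 0.759 of its PBS level. Fits were made with edgeR over all 12 libraries, and called means a p below 0.05 after Benjamini-Hochberg adjustment over all genes tested. The 4 make up 7.69% of the members, against 3.11% of all genes called lower. No member was called higher, against 2.14% of all genes. At an unadjusted p below 0.05, 7 members were higher and 9 lower, beside 2499 of 12036 genes in either direction. DESeq2 called 3 members higher. Shares of all genes called by DESeq2, limma or voom are not given, here or below. Member counts from these methods therefore cannot be set beside the edgeR shares. Non-overlapping groups were found for 12 members (23.1%, against 18.7% of all genes). The members' median log2 fold change was -0.05, beside -0.00071 over all genes.

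Wdr12 (chromosome 1, 60069785 to 60098146, minus strand, GRCm38 as for all positions here) forms the PeBoW complex of 60S assembly with Pes1 and Bop1. It measured 5.98, 7.29 and 6.45 FPKM in PBS 1 to 3 and 4.77, 4.64 and 4.73 in OAP2 1 to 3. All OAP2 libraries were below all PBS libraries, and the log2 fold change was -0.47 ± 0.09 (SE), with a 95% interval of -0.67 to -0.26 and an adjusted p of 0.0129. Its partners were not called, with -0.39 ± 0.13 for Bop1 (adjusted p = 0.110) and -0.19 ± 0.10 for Pes1 (adjusted p = 0.329). Noc2l (chromosome 4, 156235919 to 156247616, plus strand), a nucleolar complex protein of 60S assembly also known as an inhibitor of histone acetylation, measured 76.22, 66.26 and 78.67 FPKM in PBS and 56.11, 53.03 and 57.23 in OAP2. The groups did not overlap, with a log2 fold change of -0.40 ± 0.09 and an adjusted p of 0.0178.

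Polr1b (chromosome 2, 129100995 to 129126594, plus strand) encodes the second-largest subunit of RNA polymerase I, which forms the active site together with Polr1a. It measured 24.56, 25.9 and 23.04 FPKM in PBS and 19.18, 17.97 and 16.66 in OAP2, without overlap. The log2 fold change was -0.44 ± 0.10 and the adjusted p 0.0213. The largest subunit, Polr1a, gave 0.10 ± 0.09 (adjusted p = 0.584). Wdr43 (chromosome 17, 71615895 to 71659031, plus strand), a WD-repeat protein of the processome, measured 50.0, 64.05 and 50.26 FPKM in PBS and 38.38, 38.17 and 44.92 in OAP2. Its log2 fold change was -0.42 ± 0.11 with an adjusted p of 0.0425, and PBS 2 was the highest library.

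Leaving out single libraries moved these calls. The count of 4 for OAP2 against PBS became 0 without OAP2 1, 1 without OAP2 2 or PBS 1, and 16 without PBS 2. Wdr12 lost its call without OAP2 1, Noc2l without PBS 1, PBS 3, OAP2 1 or OAP2 2, and Polr1b without PBS 1, OAP2 1 or OAP2 2, while Wdr43 kept its call among the single omissions only without PBS 2, PBS 3 or OAP2 3.

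Between Oxa and PBS, 4 members fell and 0 rose. They were Polr1b and Wdr12 again, and with them Nop56 of the snoRNPs and Ddx21, a helicase that links RNA polymerase I transcription with precursor processing. Both comparisons share the PBS libraries. The 4 are 7.69% of the members, beside 4.76% of all genes called lower and 5.35% called higher. At an unadjusted p below 0.05, 2 members were higher and 7 lower. Over all genes 3261 of 12036 passed in either direction, a larger share. DESeq2 called 0 members higher. The groups did not overlap for 18 members (34.6%, against 29.1% of all genes), and the median log2 fold change was -0.07 beside -0.01 over all genes.

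Nop56 (chromosome 2, 130274430 to 130279313, plus strand) measured 218.37, 213.17 and 259.1 FPKM in PBS and 171.12, 154.58 and 188.12 in Oxa, so that every Oxa library was below every PBS library. Its log2 fold change was -0.42 ± 0.11 and its adjusted p 0.0344. The paralogous scaffold Nop58 gave -0.32 ± 0.12 (adjusted p = 0.113), and Fbl, of the same particles, -0.14 ± 0.13 (adjusted p = 0.513). Ddx21 (chromosome 10, 62580251 to 62602281, minus strand) measured 114.45, 155.65 and 114.84 FPKM in PBS and 94.04, 94.44 and 98.59 in Oxa. It fell by 0.42 ± 0.12 on the log2 scale (adjusted p = 0.0400), and the change was -0.25 without PBS 2, the library in which it was highest.

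In the Oxa libraries Wdr12 measured 5.21, 4.48 and 5.63 FPKM, below its PBS range of 5.98 to 7.29, with a log2 fold change of -0.36 ± 0.09 and an adjusted p of 0.0301. Polr1b measured 20.86, 18.61 and 18.04 FPKM in Oxa, also below its PBS range, with -0.35 ± 0.10 and an adjusted p of 0.0415. Polr1a again gave a smaller value, -0.06 ± 0.09 (adjusted p = 0.690). Mybbp1a, a nucleolar transcription regulator, had the largest positive value among the members whose groups did not overlap, 0.28 ± 0.11 (adjusted p = 0.121).

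The count of 4 for Oxa against PBS became 0 without Oxa 1 or Oxa 2, 1 without Oxa 3, PBS 1 or APAP 3, 2 without PBS 3, APAP 2 or OAP2 2, and 14 without PBS 2. Wdr12 lost its call without Oxa 1, Oxa 2 or PBS 3, Nop56 without any Oxa library, PBS 1, PBS 3 or APAP 3, Ddx21 without any Oxa or APAP library, PBS 1 or OAP2 2, and Polr1b without any Oxa library, PBS 1, APAP 2, APAP 3, OAP2 1 or OAP2 2.

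Between APAP and PBS no member was called by edgeR, beside 0.0166% of all genes called in either direction. At an unadjusted p below 0.05 there were 6 members, 4 higher and 2 lower, beside 1103 of 12036 genes in either direction. DESeq2, limma and voom with sample weights each called 0 members. The smallest p belonged to Wdr12, at -0.27 ± 0.09 (adjusted p = 0.427), with 5.03, 5.41 and 5.47 FPKM in APAP, all below the PBS range. Wdr43 gave -0.29 ± 0.11 (adjusted p = 0.464), Polr1a 0.24 ± 0.09 (adjusted p = 0.454) and Rrp12, of 40S export, 0.25 ± 0.10 (adjusted p = 0.506). The groups did not overlap for 7 members (13.5%, against 15.9% of all genes). The median was -0.0048 beside -0.0041 over all genes. No left-out library gave a call.

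**Figure D2:**
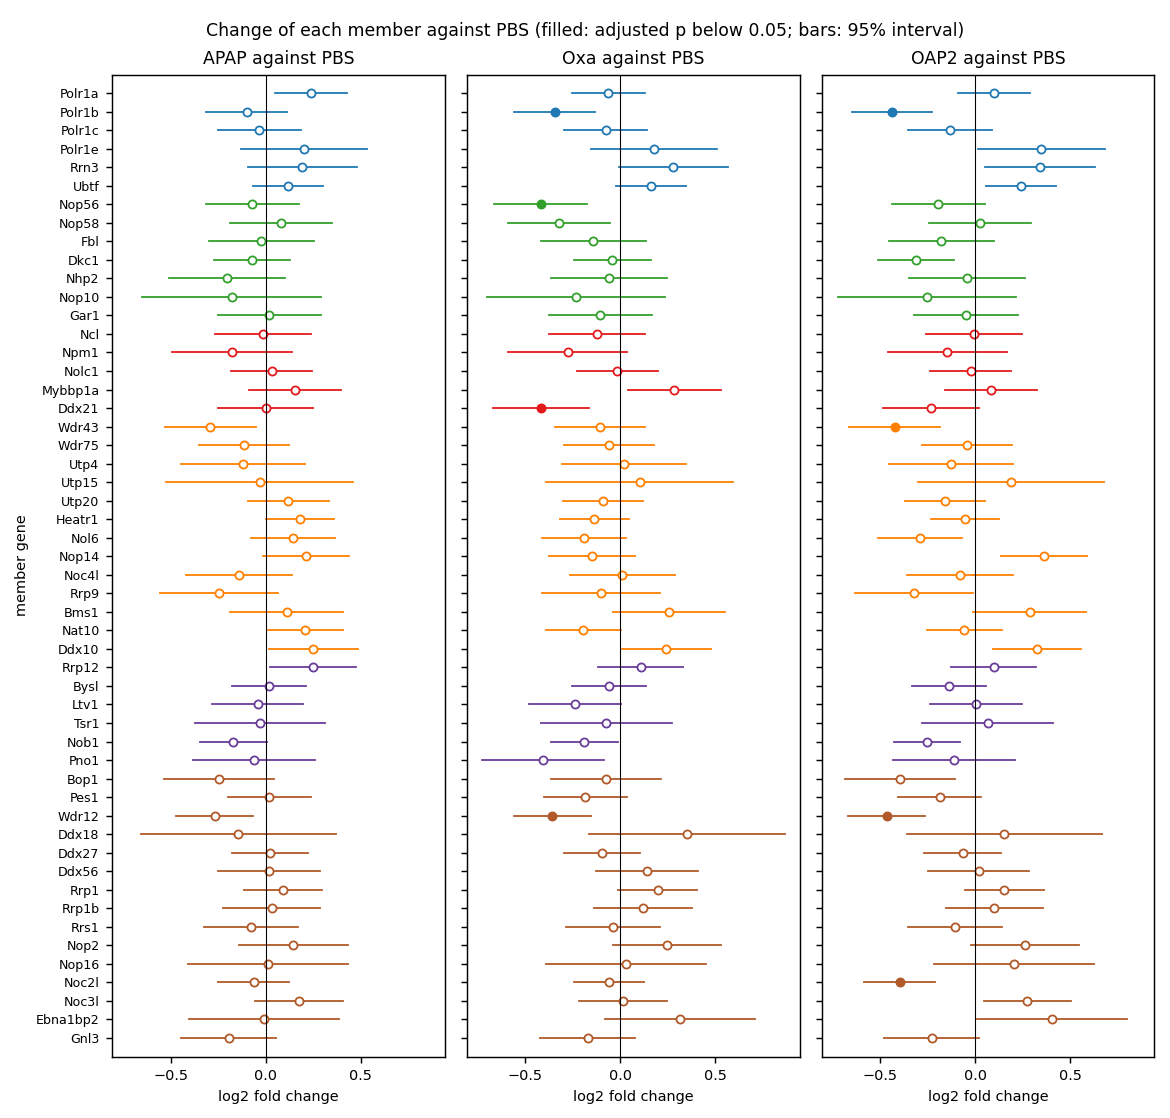
Log2 fold change of each of the 52 members against PBS in APAP, Oxa and OAP2 (points, coloured by role) with 95% intervals (bars), from the edgeR fit over 12 libraries; filled points have an adjusted p below 0.05. There are 0 filled points for APAP and 4 each for Oxa and OAP2, all to the left of 0.

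Between OAP2 and Oxa, Nop14 rose and Noc2l fell in OAP2. That is 1 member in each direction (1.92% each), beside 6.02% of all genes called higher and 6.91% called lower. The groups did not overlap for 14 members (26.9%, against 36.1% of all genes), and the median log2 fold change was 0.01 beside 0.00098 over all genes. Nop14 (chromosome 5, 34638536 to 34660148, minus strand), a processome protein needed for maturation of the small subunit RNA, measured 66.04, 65.94 and 69.96 FPKM in Oxa and 87.6, 88.1 and 111.09 in OAP2. Every OAP2 library was above every Oxa library, with a log2 fold change of 0.51 ± 0.11, a 1.43-fold difference, and an adjusted p of 0.00760. Nop14 kept its call under all 23 alternatives, with adjusted p values up to 0.0374. OAP2 3 was its highest library, and PBS, at 75.45, 77.72 and 72.17 FPKM, lay between Oxa and OAP2.

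Noc2l measured 72.09, 69.59 and 69.12 FPKM in Oxa, near its PBS level and above its OAP2 values of 53.03 to 57.23. Its log2 fold change in OAP2 against Oxa was -0.34 ± 0.09 (adjusted p = 0.0217). Dkc1 (-0.27 ± 0.09, adjusted p = 0.0753) and Wdr43 (-0.31 ± 0.11, adjusted p = 0.0798) were the next members and were not called. The count of 2 became 1 without OAP2 1, OAP2 2 or any Oxa library, in each case because Noc2l lost its call, and 5 without PBS 2, when Nop14 was higher and Noc2l, Bop1, Wdr43 and Dkc1 lower (10.1% of all genes were called higher and 12.7% lower).

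Between OAP2 and APAP edgeR called 0 members, beside 0.474% of all genes. At an unadjusted p below 0.05 there were 8, of which 7 were lower in OAP2, beside 1835 of 12036 genes in either direction. DESeq2 called 3 members, limma 0 and voom with sample weights 11, with their shares of all genes not given. Nol6, a processome protein, had the smallest p, with 17.59, 15.95 and 17.73 FPKM in APAP and 12.97, 13.97 and 11.72 in OAP2. Its log2 fold change was -0.43 ± 0.10 and its adjusted p 0.0868. Noc2l gave -0.33 ± 0.09 (adjusted p = 0.104), Polr1b -0.34 ± 0.10 (adjusted p = 0.138) and Nat10 -0.27 ± 0.09 (adjusted p = 0.197). For 14 members the groups did not overlap (26.9%, against 25.7% of all genes), and the median was -0.05 beside 0.0021 over all genes. Without PBS 2, which is in neither group but enters the estimate of the spread, 4 members were called, with Ebna1bp2 higher and Noc2l, Nol6 and Polr1b lower (4.13% of all genes were called higher and 3.48% lower).

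Between Oxa and APAP, 7 members fell in Oxa and 0 rose. They make up 13.5% of the members, beside 7.18% of all genes called lower and 8.21% called higher. At an unadjusted p below 0.05, 10 of the 52 members were lower and 0 higher. Over all genes 3732 of 12036 passed in either direction, a larger share. DESeq2 called 8 members, all lower, with its share of all genes not given. Of the 7, 4 belong to the processome (Nat10, Heatr1, Nop14 and Nol6), and the others are Polr1a, Ddx21 and Nop58. The 15 members of 60S assembly held none of the called genes with all 12 libraries. Without PBS 2, which is in neither group, 2 of them were called higher in Oxa, Ddx18 (0.49 ± 0.09, adjusted p = 0.00191) and Ebna1bp2 (0.32 ± 0.11, adjusted p = 0.0379), and 8 members were called lower, the 7 and Nop56. Of all genes 14.7% were then called higher and 13.0% lower. No overlap between the groups was found for 21 members (40.4%, against 47.8% of all genes), and the median was -0.03 beside -0.0028 over all genes.

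Nat10 (chromosome 2, 103721256 to 103761270, minus strand), the acetyltransferase that modifies cytidines of ribosomal RNA, measured 34.94, 31.89 and 34.41 FPKM in APAP and 24.84, 26.34 and 27.07 in Oxa. Its log2 fold change was -0.40 ± 0.09 and its adjusted p 0.0117. Heatr1 (chromosome 13, 12395027 to 12440289, plus strand), a HEAT-repeat protein of the processome, measured 41.04, 38.39 and 36.73 in APAP and 30.99, 31.92 and 32.58 in Oxa. It changed by -0.32 ± 0.08 (adjusted p = 0.0235). The PBS libraries, at 27.37 to 32.64 FPKM for Nat10 and 34.98 to 35.44 for Heatr1, also lay above all Oxa libraries.

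Nop14 stood at 88.75, 86.02 and 79.27 FPKM in APAP, above its Oxa range of 65.94 to 69.96, with a log2 fold change of -0.37 ± 0.11 (adjusted p = 0.0340). Nol6 (chromosome 4, 41114427 to 41124455, minus strand) measured 13.31, 14.72 and 13.5 FPKM in Oxa, below all APAP libraries, with -0.33 ± 0.10 (adjusted p = 0.0425). Ddx21 measured 127.82, 120.4 and 125.96 FPKM in APAP against 94.04 to 98.59 in Oxa, a log2 fold change of -0.42 ± 0.12 (adjusted p = 0.0312). None of these 3 genes overlapped between the groups.

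Polr1a (chromosome 6, 71909053 to 71984935, plus strand), the largest subunit of RNA polymerase I, measured 18.59, 16.35 and 16.76 FPKM in APAP and 13.52, 14.75 and 14.62 in Oxa. It changed by -0.30 ± 0.09 (adjusted p = 0.0362). Nop58 (chromosome 1, 59684971 to 59719044, plus strand) measured 38.28, 38.72 and 37.79 in APAP and 27.69, 28.36 and 32.87 in Oxa, and changed by -0.40 ± 0.12 (adjusted p = 0.0444). Nop56 missed the threshold with -0.35 ± 0.11 (adjusted p = 0.0539). The count of 7 became 0 without APAP 1 or Oxa 1, 1 without APAP 2 or Oxa 3, 2 without Oxa 2 and 3 without APAP 3, and 10 without PBS 2. Nat10 kept its call except without APAP 1 or Oxa 1. Heatr1 and Nop14 lost theirs without APAP 1, APAP 2 or any Oxa library, Ddx21 and Polr1a without any APAP or Oxa library, Nol6 without any APAP library, Oxa 1, Oxa 3 or OAP2 1, and Nop58 without any APAP or Oxa library or PBS 1.

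**Figure D3:**
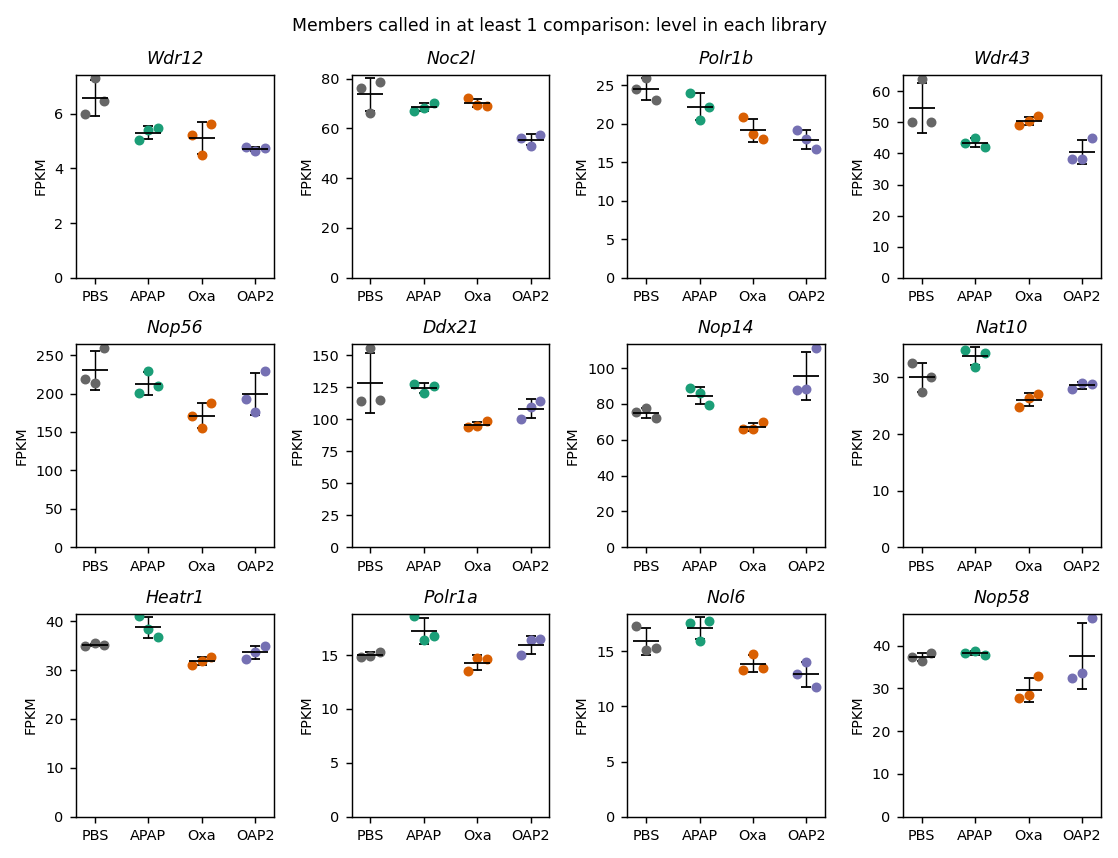
FPKM of the 12 members called in at least 1 comparison, in each library (points), with the group mean (horizontal line) and SD (bars, n = 3 libraries); each axis starts at 0. Noc2l is lowest in OAP2 (53.03 to 57.23 FPKM), while Nop14 is lowest in Oxa (65.94 to 69.96). The mean of Nop14 is highest in OAP2 (87.6 to 111.09), where its range overlaps that of APAP (79.27 to 88.75).

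Whether OAP2 departed from the sum of the Oxa and APAP changes was tested as OAP2 minus Oxa minus APAP plus PBS on the log2 scale. By edgeR no member departed, beside 0.548% of all genes. At an unadjusted p below 0.05 there were 2, beside 1798 of 12036 genes. DESeq2 and limma called 0 members and voom with sample weights 1. The smallest p values belonged to Noc2l (-0.27 ± 0.12, adjusted p = 0.311), Mybbp1a (-0.35 ± 0.16, adjusted p = 0.321), Nop14 (0.30 ± 0.15, adjusted p = 0.372) and Nop56 (0.29 ± 0.16, adjusted p = 0.417). The 95% intervals ran from -0.53 to -0.01 for Noc2l and from -0.02 to 0.62 for Nop14. Without PBS 2, Ddx18 was called, with -0.54 ± 0.14 (adjusted p = 0.0427, beside 5.03% of all genes called).

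Without PBS 2 the picture against PBS changed. In OAP2, 12 of the 52 members were then called higher and 4 lower, beside 8.77% and 7.65% of all genes. In Oxa, 9 of the 52 were called higher and 5 lower, beside 14.2% and 11.2% of all genes. In APAP there were still 0, beside 0.0249% of all genes. At an unadjusted p below 0.05 there were 15 members, beside 1281 of 12036 genes. The 4 members lower in OAP2 were the same as with PBS 2, Wdr12, Noc2l, Polr1b and Wdr43. In Oxa, Nat10 (-0.26 ± 0.09, adjusted p = 0.0446) joined Wdr12, Nop56, Ddx21 and Polr1b. The members' median moved from -0.05 to 0.02 for OAP2 and from -0.07 to 0.02 for Oxa. PBS 2 was the highest of the PBS libraries for all 12 members called higher in OAP2 and all 9 called higher in Oxa, so its omission lowered their PBS mean.

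Ddx18 (chromosome 1, 121553835 to 121567989, minus strand), a DEAD-box helicase of 60S assembly, shows this most. It measured 42.07, 86.97 and 36.64 FPKM in PBS 1 to 3, 53.99, 46.29 and 45.64 in APAP, 68.19, 70.68 and 71.33 in Oxa, and 59.36, 58.4 and 65.06 in OAP2. PBS 2 exceeded every treated library, and PBS 1 and PBS 3 lay below them all. With PBS 2 the log2 fold change was 0.35 ± 0.24 for Oxa (adjusted p = 0.378) and 0.15 ± 0.24 for OAP2 (adjusted p = 0.789). Without it these were 0.84 ± 0.11 (adjusted p = 0.000214) and 0.64 ± 0.11 (adjusted p = 0.00160).

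Ebna1bp2 (chromosome 4, 118620799 to 118627776, plus strand), another 60S assembly factor, measured 23.15, 37.27 and 20.34 FPKM in PBS, 32.15, 32.19 and 35.69 in Oxa, and 34.97, 30.59 and 40.47 in OAP2. Its log2 fold change for OAP2 was 0.40 ± 0.18 with PBS 2 (adjusted p = 0.233) and 0.71 ± 0.12 without (adjusted p = 0.00191). For Oxa it was 0.31 ± 0.18 (adjusted p = 0.298) and 0.62 ± 0.12 (adjusted p = 0.00252). The other members called higher in OAP2 without PBS 2 were Polr1e, Rrn3 and Ubtf of the RNA polymerase I group, Utp15, Ddx10, Bms1 and Nop14 of the processome, Tsr1 of 40S assembly, and Nop2 and Noc3l of 60S assembly, with log2 fold changes from 0.31 to 0.63. In Oxa they were Rrn3, Polr1e, Utp15, Bms1, Ddx10, Nop2 and Mybbp1a, with 0.36 to 0.54. Among RNA polymerase I and its factors the genes thus went both ways in OAP2 without PBS 2. The subunit Polr1e (0.59 ± 0.11) and the factors Rrn3 (0.52 ± 0.10) and Ubtf (0.31 ± 0.08) were higher, and the subunit Polr1b (-0.40 ± 0.10) lower.

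**Figure D4:**
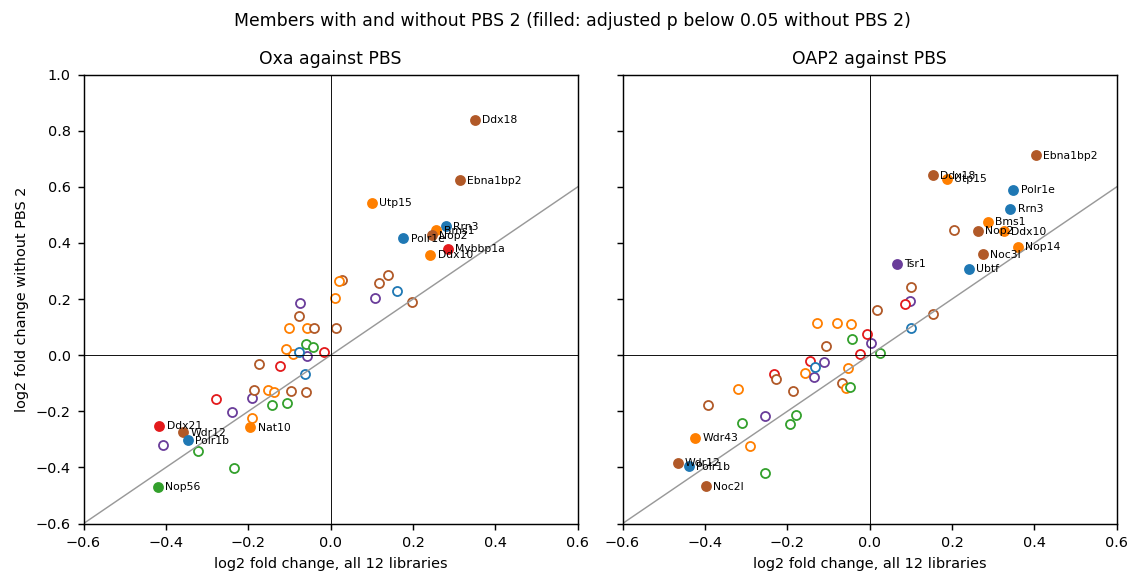
Log2 fold change of each of the 52 members with all 12 libraries (horizontal axis) and without PBS 2 (vertical axis), for Oxa against PBS and OAP2 against PBS; the grey line marks equal values and filled, named points have an adjusted p below 0.05 without PBS 2. Most points lie above the line, Ddx18 farthest, at 0.35 and 0.84 in Oxa.

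OAP2 3 weighed on the members as well. With PBS 2 and OAP2 3 both left out, a choice made after the data were seen, 13 members were called higher and 13 lower in OAP2 against PBS, beside 12.5% and 11.1% of all genes. The snoRNP proteins then included 5 called lower, with Nop10 at -0.72 ± 0.14, Fbl at -0.39 ± 0.10, Nop56 at -0.36 ± 0.10, Dkc1 at -0.29 ± 0.08 and Gar1 at -0.29 ± 0.09, and none called higher. OAP2 3 is the library in which these proteins stood highest within OAP2, so its omission lowered their OAP2 mean. With all libraries 0 of the 7 were called in that comparison and 1 had an unadjusted p below 0.05, beside 2499 of 12036 genes. Without PBS 2 alone 0 were called, and without OAP2 3 alone 1, Dkc1 (-0.36 ± 0.10, adjusted p = 0.0451), beside 4.07% of all genes called lower and 3.62% higher. Nop14 against Oxa remained called, at 0.39 ± 0.08. Against APAP, 9 members were lower in OAP2 and 0 higher, beside 5.23% and 6.72% of all genes. Oxa against PBS gave 14 higher and 8 lower (18.5% and 16.9% of all genes), and Oxa against APAP 3 higher and 12 lower (19.4% and 17.7%).

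With all 12 libraries, few members set 1 group apart from the other 9 libraries in log2 CPM. In all 3 PBS libraries, 2 members lay above all treated ones (3.85%, against 1.34% of all genes), Wdr12 and Nob1, and 0 lay below them (1.3%). Nob1 (chromosome 8, 107412486 to 107425041, minus strand), the endonuclease that makes the final cut of the small subunit RNA, measured 40.73, 44.06 and 41.29 FPKM in PBS and 32.93 to 37.75 in the 9 treated libraries. No treatment passed the test for it, with -0.25 ± 0.08 for OAP2 (adjusted p = 0.0908), -0.19 ± 0.08 for Oxa (adjusted p = 0.151) and -0.17 ± 0.08 for APAP (adjusted p = 0.554). Polr1a and Heatr1 were above all others in APAP (3.85%, against 1.09% of all genes). Nop58, Ddx21, Nop14 and Nat10 were below all others in Oxa (7.69%, against 5.63%), and Dkc1, Bop1 and Noc2l in OAP2 (5.77%, against 3.09%). Oxa and OAP2 each set 0 members above all others, against 7.29% and 2.56% of all genes. Without PBS 2 the PBS side changed. Both remaining PBS libraries lay below all treated ones for 12 members (23.1%, against 6.31% of all genes), among them Rrn3, Ubtf, Ddx18 and Ebna1bp2, and above them for 3, Wdr12, Nob1 and Noc2l (5.77%, against 5.0%). Oxa then set 1 member above all others, Ddx18 (1.92%, against 11.5% of all genes). APAP set 4 above, Polr1a, Heatr1, Ddx21 and Utp20 (7.69%, against 1.45%). The members lowest in Oxa (7.69%, against 8.78%) and in OAP2 (5.77%, against 4.63%) were the same.

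Read by role with all 12 libraries, the RNA polymerase I group held 2 called genes, Polr1b, lower in OAP2 and in Oxa against PBS, and Polr1a, lower in Oxa against APAP, while Polr1c, Polr1e, Rrn3 and Ubtf were not called in any comparison. Ubtf, at 31.19, 35.56 and 31.25 FPKM in PBS and 38.16, 40.19 and 36.44 in OAP2, had no overlap between these groups and a log2 fold change of 0.24 ± 0.09 (adjusted p = 0.126). Rrn3, at 31.57, 41.39 and 27.63 FPKM in PBS and 40.12, 43.1 and 43.24 in OAP2, gave 0.34 ± 0.13 (adjusted p = 0.159), and its PBS 2 value lay within the OAP2 range. Among the snoRNP proteins, Nop56 was lower in Oxa against PBS and Nop58 in Oxa against APAP, both of the box C/D particles. The box H/ACA proteins Dkc1, Nhp2, Nop10 and Gar1 were not called. All 7 snoRNP proteins had a negative log2 fold change in Oxa against PBS, with a median of -0.14, beside 51.6% of all genes with a negative value. Without PBS 2 these were 5 of 7, with Nhp2 (0.04 ± 0.14) and Dkc1 (0.03 ± 0.09) above 0. Of the multifunctional proteins, Ddx21 alone was called. None of the 6 late 40S factors was called in any comparison, and in Oxa against APAP all 6 had negative values, with a median of -0.11, beside 50.3% of all genes with a negative value. Pno1, the partner of Nob1 in the pre-40S particle, measured 50.76, 63.18 and 56.33 FPKM in PBS and 39.58, 41.04 and 47.04 in Oxa, without overlap but not called (-0.41 ± 0.15, adjusted p = 0.0967). In 60S assembly the calls with all 12 libraries were for Wdr12 and Noc2l, and 13 of its 15 members had none.

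Of 87 other tested ribosome biogenesis genes, a list set with earlier results of these data known, 0 were called higher and 2 lower in OAP2 against PBS, beside 2.14% and 3.11% of all genes. These were Taf1a (-0.41 ± 0.10, adjusted p = 0.0292), a subunit of the selectivity factor that places RNA polymerase I on its promoter, and Senp3 (-0.32 ± 0.09, adjusted p = 0.04998), a SUMO protease of the nucleolus. In Oxa against PBS 5 of the 87 were lower and 0 higher, beside 4.76% and 5.35% of all genes. Taf1d, another selectivity factor subunit, fell most, from 34.77, 41.3 and 43.22 FPKM in PBS to 24.81, 19.42 and 23.9 in Oxa (-0.80 ± 0.11, adjusted p = 0.00235), and Taf1a followed, from 16.0, 19.56 and 18.05 to 10.21, 10.42 and 12.01 (-0.71 ± 0.10, adjusted p = 0.00235). The others were Riok3, Dis3 and Wdr18. In OAP2 against Oxa, Taf1d (0.53 ± 0.11, adjusted p = 0.00804) and Riok3 (0.45 ± 0.09, adjusted p = 0.00658) were higher and Senp3 and Tcof1 lower. That is 2 of the 87 in each direction, beside 6.02% of all genes called higher and 6.91% called lower. In Oxa against APAP 2 were higher and 8 lower, beside 8.21% and 7.18% of all genes. Taf1d (-0.71 ± 0.11, adjusted p = 0.00221), Riok3, Taf1a and Mdn1 were the 4 with the smallest p. By edgeR none was called in APAP against PBS or in OAP2 against APAP, beside 0.0166% and 0.474% of all genes. At an unadjusted p below 0.05 there were 7 and 12, beside 1103 and 1835 of 12036 genes.

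These counts also turned on PBS 2. Without it, 17 of the 87 were called higher and 5 lower in OAP2 against PBS, beside 8.77% and 7.65% of all genes, and 19 higher and 8 lower in Oxa against PBS, beside 14.2% and 11.2%. The 4 with the smallest p in OAP2 were Gnl2, a GTPase of 60S assembly (0.81 ± 0.11, adjusted p = 0.000616), the helicase Ddx24 (0.60 ± 0.09, adjusted p = 0.000738), Surf6, a nucleolar RNA-binding protein (1.03 ± 0.15, adjusted p = 0.000796), and Pelp1 (-0.60 ± 0.09, adjusted p = 0.000884). In Oxa they were Cd3eap, a subunit of RNA polymerase I (1.03 ± 0.14, adjusted p = 0.000311), Ddx24, Riok3 and Taf1a. Taf1a and Taf1d were still lower in Oxa against PBS, at -0.64 ± 0.09 (adjusted p = 0.000487) and -0.77 ± 0.12 (adjusted p = 0.000574). In Oxa against APAP 12 of the 87 were higher and 13 lower, beside 14.7% and 13.0% of all genes. In OAP2 against Oxa 4 were higher and 6 lower, beside 10.1% and 12.7%. In OAP2 against APAP 3 were higher and 4 lower, beside 4.13% and 3.48%. In APAP against PBS there were still 0 by edgeR, beside 0.0249% of all genes. At an unadjusted p below 0.05 there were 14, beside 1281 of 12036 genes.

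Myc, whose protein binds many of these genes' promoters, measured 286.14, 310.44 and 307.76 FPKM in PBS, 257.51, 243.44 and 264.2 in APAP, 355.16, 368.1 and 344.94 in Oxa, and 209.78, 218.18 and 237.73 in OAP2. The 4 groups did not overlap. Myc fell in OAP2 against PBS (-0.43 ± 0.09, adjusted p = 0.0120) and against Oxa (-0.68 ± 0.09, adjusted p = 0.000522), and was higher in Oxa than in APAP (0.45 ± 0.09, adjusted p = 0.00515). Against PBS its value in Oxa was 0.25 ± 0.09 (adjusted p = 0.0790). Rpl5, a ribosomal protein that with Rpl11 and the 5S RNA can bind Mdm2, fell in Oxa against PBS (-0.55 ± 0.11, adjusted p = 0.0101), while Rpl11 gave -0.28 ± 0.17 (adjusted p = 0.320). Cdkn1a, a p53 target that halts the cell cycle, was lower in Oxa than in PBS (-0.74 ± 0.18, adjusted p = 0.0229) and higher in OAP2 than in Oxa (0.75 ± 0.18, adjusted p = 0.0188). Trp53 was lower in OAP2 than in Oxa (-0.36 ± 0.10, adjusted p = 0.0316), and Mdm2 was not called in any comparison. Without PBS 2, Myc and Mdm2 were called higher in Oxa against PBS (0.27 ± 0.09, adjusted p = 0.0433, and 0.27 ± 0.09, adjusted p = 0.0427). In Oxa against APAP Trp53 and Mdm2 were then called higher and Cdkn1a and Rpl5 lower, Rpl5 was called higher in OAP2 against Oxa (0.35 ± 0.11, adjusted p = 0.0331), and Myc departed from the sum of the Oxa and APAP changes (-0.50 ± 0.12, adjusted p = 0.0355). The calls made with all 12 libraries for these 6 genes were all made without PBS 2 as well.

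Some features of the loci bear on how the values are read. The members lie on 18 chromosomes, and only Nop58 with Wdr12 (chromosome 1, 350741 bases apart) and Utp4 with Nob1 (chromosome 8, 489398 bases apart) were near neighbours. In GENCODE M21, 7 members (13.5%) carry small nucleolar RNA genes within them on the same strand, against 2.66% of the tested genes. Nop56 holds 5, Nop58 4, Ncl, Wdr43 and Gnl3 3 each, Tsr1 2 and Dkc1 1. These small RNAs were not measured here. Of the 52 members, 19 overlap a gene on the opposite strand, among them Wdr12 with Carf, Noc2l with Samd11, Nop56 with Idh3b, Heatr1 with Lgals8, Wdr43, Nop14 and Polr1a with antisense RNAs. Whether counting used the strand is not given in the sources, so values of these members are less certain.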

How the data were processed

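Poly(A) RNA of 12 libraries of 4T1 cells was sequenced by the submitters. Per the file headers, each library has a column of counts and a column of FPKM in the deposited table. The deposited counts are estimated counts (expected counts), unscaled whole numbers resembling StringTie output. FPKM, which the authors computed from transcript length and library size, served here for levels. The submitters' processing notes list StringTie 2.1.6, HISAT2 2.2.1, cutadapt 1.9, edgeR, DESeq2 and build mm9, with no roles. Of 29864 genes matched to GENCODE M21, 91.1% agree in position with GRCm38, which is used here.

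The 12036 genes that reached FPKM 1 in 3 or more libraries were fitted with edgeR 4.0.16 (R 4.3.3): TMM scaling, 1 mean per group over all 12 libraries, quasi-likelihood tests, 2-sided, Benjamini-Hochberg adjustment over all genes tested, threshold 0.05. SE was approximated from the log2 fold change and the F statistic. The prior count for log2 CPM was 2. The script was tested on simulated data. Depth was 64071751 to 71500487 counts per library, and the biological coefficient of variation 18.1%.

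The members, lists and tests were chosen with earlier results of these data known. Per comparison, the called members were named, or the 4 smallest p where fewer than 4 were called, with the 2 highest members of each role, up to 4 called genes of the other list and all 6 genes around MYC and p53. Other members were named after their values were seen. Alternatives were DESeq2 1.42.0, limma 3.58.1 on log2(FPKM + 1) and log2(FPKM + 0.1), voom with sample weights, other scalings and filters, the 6 libraries compared alone, each library left out, and the replicate number as a block.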

Additional observations from a re-analysis of the deposited data

How the results depend on the processing

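Of the 31 member values that the naming rule picked (the called members, or the 4 smallest p, of each comparison), 0 reversed their direction across 23 alternatives, or 22 for the departure from the sum, which the 6 libraries alone cannot give. Other members named in the text were not followed across the alternatives one by one. Each member median moved by less than 0.103, the SD of the member mean between libraries of a group, except that of the departure from the sum, which was -0.02, ran from -0.1023 to 0.06091 with 1 library left out, and was -0.16 without PBS 2 and OAP2 3. That SD is larger than each median, so a median could change sign within it. With 1 library left out the median ran from -0.14 to 0.02 in OAP2 against PBS and from -0.13 to 0.02 in Oxa against PBS. It ran from -0.06 to 0.08 in APAP against PBS, -0.05 to 0.06 in OAP2 against Oxa and -0.13 to 0.03 in OAP2 against APAP. Only in Oxa against APAP was the sign kept (-0.04 to -0.0012). Members called with each library left out in turn numbered 0 to 16 in OAP2 against PBS, 0 to 14 in Oxa against PBS, 0 in APAP against PBS, 1 to 5 in OAP2 against Oxa, 0 to 4 in OAP2 against APAP, 0 to 10 in Oxa against APAP and 0 to 1 for the departure from the sum. In OAP2 against PBS (4 members), DESeq2 called 9, voom with sample weights 22, the 6 libraries alone 0, and the fit without PBS 2 and OAP2 3, chosen after seeing the data, 26. In Oxa against PBS (4), limma called 2 with either pseudocount, no filter 0, the 6 libraries alone 0, voom 21, and the fit without both libraries 22. In OAP2 against Oxa (2), DESeq2 called 4, voom 5 and the fit without both 5. In OAP2 against APAP (0), DESeq2 called 3, the 6 libraries alone 1, voom 11 and the fit without both 9. In Oxa against APAP (7), no filter left 1, the 6 libraries alone gave 15, voom 16 and the fit without both 15. For the departure from the sum (0), voom called 1 and the fit without both 2. The cause was not tested. Shares of all genes called under DESeq2, limma, voom, no filter or the 6 libraries alone are not given here. Libraries with the same replicate number had deviations correlated at -0.152 to 0.155 in 18 pairs. Libraries with different numbers were not compared in this way, so whether the numbers mark a pairing was not settled. With the replicate block the counts were 3 in OAP2 against PBS, 4 in Oxa against PBS, 2 in OAP2 against Oxa, 5 in Oxa against APAP and 0 in the others. Sample weights were 0.131 for PBS 2 and 0.239 for OAP2 3, and 0.879 to 2.31 for the others. Each library held at least 64071751 counts, and no member fell below 4.48 FPKM in any.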
